A study of Mus musculus with 6 samples.

Results

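Osteoblast commitment and mineralization genes were examined in bone marrow mesenchymal stem cells (MSCs) of ovariectomized mice. The 9 genes were chosen by name from the 56980 genes of the deposited count table, 3 transcription factors (*Runx2*, *Sp7* and *Dlx5*) and 6 matrix and mineralization genes (*Alpl*, *Ibsp*, *Spp1*, *Dmp1*, *Phex* and *Mepe*). All 6 samples came from female mice that were ovariectomized (OVX) when 8 weeks old, had their own gut microbiota depleted with antibiotics and then received fecal microbiota transplantation (FMT) for 8 weeks. The donors, per the paper also OVX mice, were sedentary for the TranspCtrl group (3 samples) and treadmill-exercised for the TranspExer group (3 samples). The strain was not given in the sources used here, and neither the labels nor the methods say whether a sample was 1 animal or a pool, so p-values measure the spread between these samples. MSCs were obtained by culturing flushed femoral and tibial marrow for 7 days with repeated washes. No sorting step and no osteogenic medium was described for the sequenced cells.

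Osteoblasts arise from mesenchymal progenitors in steps that are marked by transcription factors. DLX5, a homeodomain protein induced by BMP signaling, acts upstream of RUNX2 and SP7. RUNX2 is required for commitment to the lineage, and SP7 (osterix), which acts downstream of RUNX2, is required for the preosteoblast to become an osteoblast. Matrix and mineralization genes follow, with alkaline phosphatase early, bone sialoprotein during mineralization, and DMP1, PHEX and MEPE mostly in osteocytes, the cells embedded in bone.

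Total estimated counts ranged from 17647638 to 21319166 per sample, and 3 counts, the floor used here, equalled 0.141 to 0.17 counts-per-million (CPM). This floor covers counting error only. TranspCtrl replicate 1 lay apart from its group. Its Euclidean distance in log2 CPM over all tested genes was 60.2 to 62.8 from the other TranspCtrl samples, which were 37 apart, while samples of different groups were 82.7 to 110 apart. The tests of the 9 genes are therefore given with and without that library, as are counts of the related gene lists. By edgeR's quasi-likelihood test, 32.2% of the 15190 tested genes passed an adjusted p-value under 0.05 (Benjamini-Hochberg), 15.5% lower and 16.6% higher in TranspExer. With a fold change of at least 2 as well, these shares were 5.28% and 3.5%. Without TranspCtrl replicate 1, 41.7% of 15494 tested genes passed, 19.6% lower and 22.1% higher, and 5.01% and 3.27% with the 2-fold threshold. The groups did not overlap for 52.4% of tested genes, and for 62% without that library. In bulk RNA, fewer cells of a type and less RNA per cell cannot be told apart.

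Of the 9 genes, 7 passed the low-count filter and were tested, 4 fell in TranspExer and none rose. Those that fell were *Sp7*, *Alpl*, *Ibsp* and *Phex*. *Runx2*, *Dlx5* and *Spp1* did not pass the test. *Dmp1* stayed below the filter and *Mepe* had no reads. *Dlx5* was the only tested gene of the 9 with a higher estimate in TranspExer (unadjusted p = 0.0649 in edgeR), and DESeq2 did not call it either. Among the transcription factors 1 of 3 fell, and among the tested matrix genes 3 of 4 fell, against the 15.5% of all tested genes that were lower. The median log2 fold change was -0.12 over the 3 transcription factors and -1.19 over the 4 tested matrix genes, beside -0.02 over all tested genes.

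**Figure D1:**
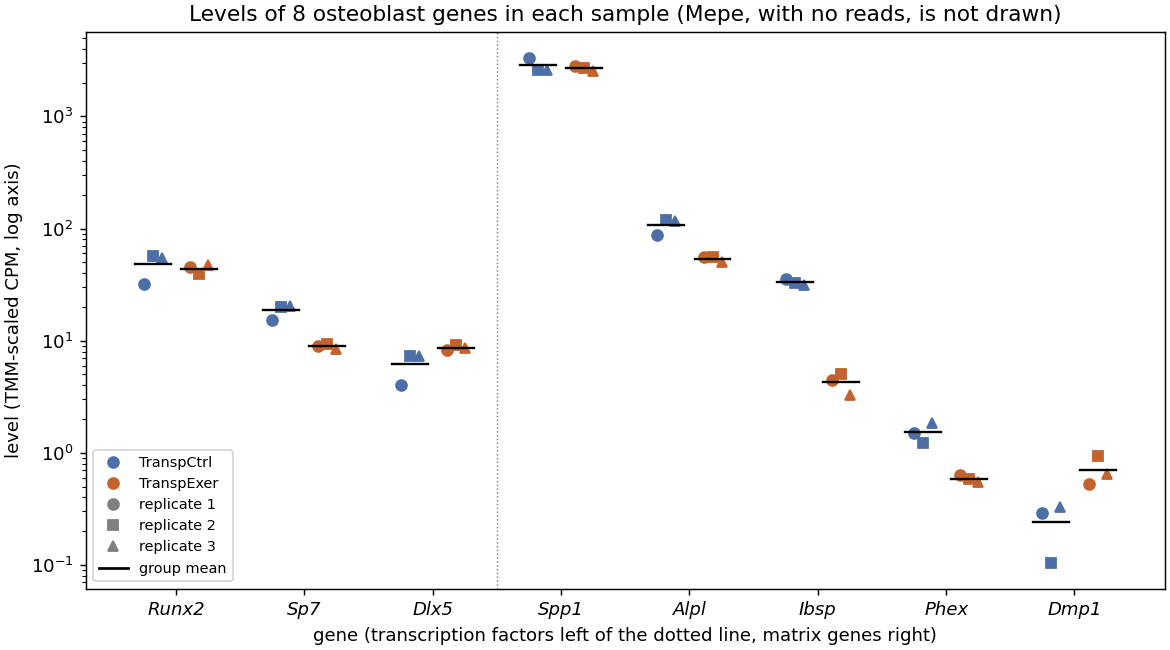
Level of 8 genes in each sample, in TMM-scaled CPM on a log axis, with the 3 transcription factors left of the dotted line. Points are samples, shapes are replicate numbers and bars are group means. *Sp7*, *Alpl*, *Ibsp* and *Phex* are lower in TranspExer with no overlap, and TranspCtrl replicate 1 has the lowest *Runx2* and *Dlx5* and the highest *Spp1*.

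*Dlx5* (ENSMUSG00000029755, chr6:6877805-6882085 on the minus strand of GRCm38, the assembly also called mm10) was a low-abundance transcript. TranspCtrl replicates 1, 2 and 3 had 82, 142 and 158 counts, or 4.00, 7.29 and 7.35 CPM. TranspExer replicates 1, 2 and 3 had 157, 156 and 174 counts, or 8.21, 9.07 and 8.64 CPM. The TranspExer samples were all above the TranspCtrl samples, and the lowest value was that of TranspCtrl replicate 1. The log2 fold change was 0.47 (standard error 0.22, 95% interval -0.04 to 0.99) with an adjusted p = 0.136 from edgeR. Without TranspCtrl replicate 1 it was 0.24 (95% interval -0.03 to 0.50, adjusted p = 0.137 from edgeR).

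*Runx2* (ENSMUSG00000039153, chr17:44495987-44814797, minus strand) spans 319 kb and has 13 annotated transcripts. TranspCtrl replicates 1, 2 and 3 had 31.9, 56.8 and 54.9 CPM. The levels were 45.1, 39.6 and 47.1 CPM in the TranspExer samples. The groups overlapped because TranspCtrl replicate 1 lay below all other samples, whereas TranspCtrl replicates 2 and 3 lay above them. The log2 fold change was -0.12 (standard error 0.20, 95% interval -0.59 to 0.34, adjusted p = 0.663 from edgeR). Without TranspCtrl replicate 1, *Runx2* was 1.27-fold lower in TranspExer, at -0.34 on the log2 scale (standard error 0.07, edgeR adjusted p = 0.00228) with no overlap of the remaining samples. Without TranspCtrl replicate 2, the estimate was 0.019. The call and the sign for *Runx2* thus rested on which TranspCtrl library was kept. The annotation places *Supt3* and the antisense genes *Runx2os1*, *Runx2os2* and *Runx2os3* over *Runx2* on the opposite strand. Whether counting used strand was not given in the sources used here. *Supt3* had 157 to 255 counts and each antisense gene at most 5, against 653 to 1181 for *Runx2*.

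*Sp7* (ENSMUSG00000060284, chr15:102356606-102367182, minus strand) was the only transcription factor of the 3 that fell with all samples in the fit. Its counts were 315, 392 and 441 in TranspCtrl replicates 1, 2 and 3, against 171, 161 and 169 in TranspExer. These equalled 15.4, 20.1 and 20.5 CPM against 8.95, 9.36 and 8.39 CPM. The groups were separated by a wide gap, and TranspCtrl replicate 1 was the lowest of its group. *Sp7* was 2.10-fold lower in TranspExer (log2 fold change -1.07, standard error 0.14, adjusted p = 0.00108 from edgeR), and 2.29-fold lower without TranspCtrl replicate 1 (log2 fold change -1.19, adjusted p = 8.88e-07 from edgeR). Over 12 alternative settings its log2 fold change ranged from -1.19 to -0.998, with a highest adjusted p of 0.00967.

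Ratios of reads within a sample do not depend on how libraries are scaled. For every 100 *Runx2* reads there were 48.2, 35.4 and 37.3 *Sp7* reads in TranspCtrl replicates 1, 2 and 3, against 19.8, 23.6 and 17.8 in TranspExer. *Sp7* was thus lower relative to *Runx2* in every TranspExer sample. TranspCtrl replicate 1 had the highest ratio, with the lowest *Runx2* level of all samples and the lowest *Sp7* level of its group. *Dlx5* went the other way, with 12.6, 12.8 and 13.4 reads per 100 *Runx2* reads in TranspCtrl and 18.2, 22.9 and 18.4 in TranspExer. The *Dlx5* ratio of TranspCtrl replicate 1 lay with those of its group, although its *Dlx5* and *Runx2* levels did not. These ratios share their denominator, and no test was made on them.

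**Figure D2:**
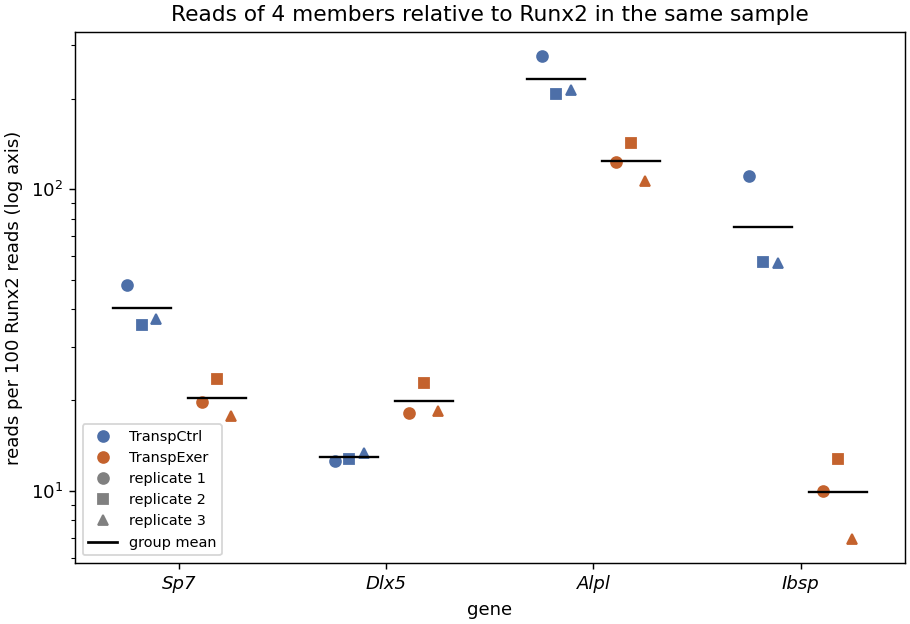
Reads of *Sp7*, *Dlx5*, *Alpl* and *Ibsp* per 100 *Runx2* reads of the same sample, on a log axis. Points are samples, shapes are replicate numbers and bars are group means. *Sp7*, *Alpl* and *Ibsp* are lower and *Dlx5* higher in every TranspExer sample, with *Ibsp* at 57.2 to 111 reads in TranspCtrl and 6.96 to 12.8 in TranspExer. The value of 111 is that of TranspCtrl replicate 1, which has the lowest *Runx2*.

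*Alpl* (ENSMUSG00000028766, chr4:137741733-137796384, minus strand) encodes tissue-nonspecific alkaline phosphatase, which hydrolyzes the mineralization inhibitor pyrophosphate. TranspCtrl replicates 1, 2 and 3 had 1805, 2294 and 2511 counts, against 1059, 964 and 1018 in TranspExer. The levels were 88.1, 118 and 117 CPM against 55.4, 56.0 and 50.6 CPM. As for *Sp7*, TranspCtrl replicate 1 was the lowest TranspCtrl sample and still lay above every TranspExer sample. *Alpl* was 1.99-fold lower in TranspExer, just short of the 2-fold threshold, and 2.17-fold lower without TranspCtrl replicate 1 (log2 fold change -1.12, adjusted p = 1.58e-08 from edgeR). The log2 fold change over 12 alternatives lay between -1.12 and -0.92.

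*Alpl* and *Sp7* followed nearly the same pattern. Over the 6 samples, each was the other's nearest gene among 11247 tested genes with a mean of at least 5 CPM, with a Euclidean distance of 0.096 between their centred log2 CPM values. The next nearest were *Trib3* and *Scd1* for *Sp7* (0.136 and 0.153), and *Fzd2* and *Fstl1* for *Alpl* (0.137 and 0.15). There were 573, 585 and 569 *Alpl* reads per 100 *Sp7* reads in TranspCtrl replicates 1, 2 and 3, against 619, 599 and 602 in TranspExer, a small difference without overlap. For *Runx2* the nearest genes were *Denn2b*, *Tram2* and *Ccnd2*, at distances of 0.13, 0.145 and 0.162. For *Spp1* they were *Faim*, *Ndc80* and *Psmc3*, at 0.0477, 0.0542 and 0.0641. The points share libraries, and the distances are a description.

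The promoter of *Alpl* is shown because its pattern was the nearest to that of *Sp7*. RefSeq promoter sequences were found for 7 of the 9 genes. The letters searched were GGGCGG for the GC box, TGTGGT or, as a variant of the same RUNX site, TGCGGT, then TAATT for the homeodomain core and TATAAA for the TATA box, on both strands of the 250 bases before the start, and matches can overlap. Of 32851 promoters, 32.7% held a GC box, 18.6% a RUNX site, 25% a homeodomain core and 12.4% a TATA box. Capitals mark matches. The upstream *Alpl* start (chr4:137796385-137796634, minus strand, GRCm38.p6) has overlapping GC boxes next to the start and no match of the other letters, and the other RefSeq start of *Alpl* has no GC box. None of the other 6 genes with a promoter sequence, *Phex* among them, held a GC box in this window. Beside it stand 30 bases of the *Runx2* promoter (chr17:44814690-44814719, minus strand), in which a RUNX site read on the opposite strand begins 80 bases before the RefSeq start. RefSeq places this start farther downstream than GENCODE does, so these 30 bases lie inside the GENCODE model of *Runx2* given above.
Alpl: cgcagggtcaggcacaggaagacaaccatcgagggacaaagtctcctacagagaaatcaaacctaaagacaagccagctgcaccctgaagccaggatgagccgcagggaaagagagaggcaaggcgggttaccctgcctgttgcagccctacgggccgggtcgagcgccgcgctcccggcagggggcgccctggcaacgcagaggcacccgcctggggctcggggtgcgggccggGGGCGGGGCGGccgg
Runx2: gtgaggtcacaaACCACAtgattctgtctc

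*Ibsp* (ENSMUSG00000029306, chr5:104299171-104311469, plus strand) encodes bone sialoprotein, an acidic matrix protein that binds integrins and hydroxyapatite. It had the largest difference of the 7 tested genes. TranspCtrl replicates 1, 2 and 3 had 728, 636 and 675 counts. TranspExer replicates 1, 2 and 3 had 86, 87 and 66 counts. These equalled 35.5, 32.7 and 31.4 CPM against 4.50, 5.06 and 3.28 CPM. The TranspCtrl samples, replicate 1 included, were close to each other and far above the TranspExer samples. *Ibsp* was 7.79-fold lower in TranspExer (log2 fold change -2.96, standard error 0.16, adjusted p = 3.55e-05 from edgeR), and 7.53-fold lower without TranspCtrl replicate 1. Its reads per 100 *Sp7* reads were 231, 162 and 153 in TranspCtrl and 50.3, 54.0 and 39.1 in TranspExer, so *Ibsp* was lower relative to *Sp7* as well.

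*Spp1* (ENSMUSG00000029304, chr5:104435118-104441050, plus strand) encodes osteopontin, a secreted phosphoprotein of bone that macrophages and osteoclasts also make. TranspCtrl replicates 1, 2 and 3 had 3350, 2590 and 2600 CPM. TranspExer replicates had 2800, 2690 and 2550 CPM. The groups overlapped, and TranspCtrl replicate 1 was the highest sample. The log2 fold change was -0.09 (95% interval -0.37 to 0.20, adjusted p = 0.612 from edgeR), and 0.046 without TranspCtrl replicate 1 (95% interval -0.06 to 0.15, adjusted p = 0.462 from edgeR). *Ibsp* reads per 100 *Spp1* reads were 1.06, 1.26 and 1.21 in TranspCtrl and 0.161, 0.188 and 0.129 in TranspExer. An overlapping gene model on the same strand, *Gm42793*, had at most 145 counts in a sample, against 46286 to 68575 for *Spp1*.

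*Dmp1* (ENSMUSG00000029307, chr5:104202613-104214102, plus strand) encodes dentin matrix protein 1, made mainly by osteocytes in bone. There were 6, 2 and 7 counts in TranspCtrl replicates 1, 2 and 3, against 10, 16 and 13 in TranspExer. The TranspExer samples were higher without overlap, at 0.523 to 0.93 CPM against 0.103 to 0.325 CPM. With no low-count filter, the log2 fold change was 1.48 (95% interval 0.35 to 2.62) with an adjusted p = 0.066 from edgeR, and DESeq2 gave 1.53 with an adjusted p = 0.0982. Without TranspCtrl replicate 1 it passed the filter by its TranspExer counts and then reached 1.64 on the log2 scale (edgeR adjusted p = 0.041). *Mepe* (ENSMUSG00000053863, chr5:104325329-104338611, plus strand), an osteocyte phosphoglycoprotein gene, had 0 counts in all 6 samples, which allows up to 0.141 to 0.17 CPM.

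*Dmp1*, *Ibsp*, *Mepe* and *Spp1* lie in this order on the plus strand within 238 kb of chromosome 5 and belong to the SIBLING family of acidic phosphoproteins. No other protein-coding gene is annotated between them. Across this stretch the values were not alike. *Dmp1* was at 2 to 16 counts and below the filter, *Ibsp* was 7.79-fold lower, *Mepe* had no reads, and *Spp1* stood among the most abundant transcripts with no difference past the test. *Dspp*, the fifth family gene, had 0 counts in all samples. The promoter of the upstream RefSeq start of *Spp1* (chr5:104434861-104435110, plus strand, GRCm38.p6) is shown because this gene stood highest of the 9. A RUNX site read on the opposite strand begins 128 bases before this start, and TATAAA 211 bases before it. The other RefSeq start of *Spp1* has neither.
Spp1: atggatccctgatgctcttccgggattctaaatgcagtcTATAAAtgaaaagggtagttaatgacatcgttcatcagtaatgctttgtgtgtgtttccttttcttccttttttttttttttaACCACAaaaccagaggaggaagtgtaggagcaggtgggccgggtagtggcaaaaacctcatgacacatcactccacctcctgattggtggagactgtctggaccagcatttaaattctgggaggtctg

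*Phex* (ENSMUSG00000057457, chrX:157162075-157415312, minus strand) encodes a membrane endopeptidase of osteoblasts and osteocytes that limits FGF23 and cleaves acidic peptides of the SIBLING proteins. Its counts were 31, 24 and 40 in TranspCtrl replicates 1, 2 and 3, against 12, 10 and 11 in TranspExer. All TranspExer samples were lower. *Phex* was 2.61-fold lower (log2 fold change -1.39, standard error 0.28, 95% interval -2.03 to -0.74, adjusted p = 0.00836 from edgeR), and 2.64-fold lower without TranspCtrl replicate 1. At these counts its adjusted p over the 12 alternatives ranged from 0.00647 to 0.0417.

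**Figure D3:**
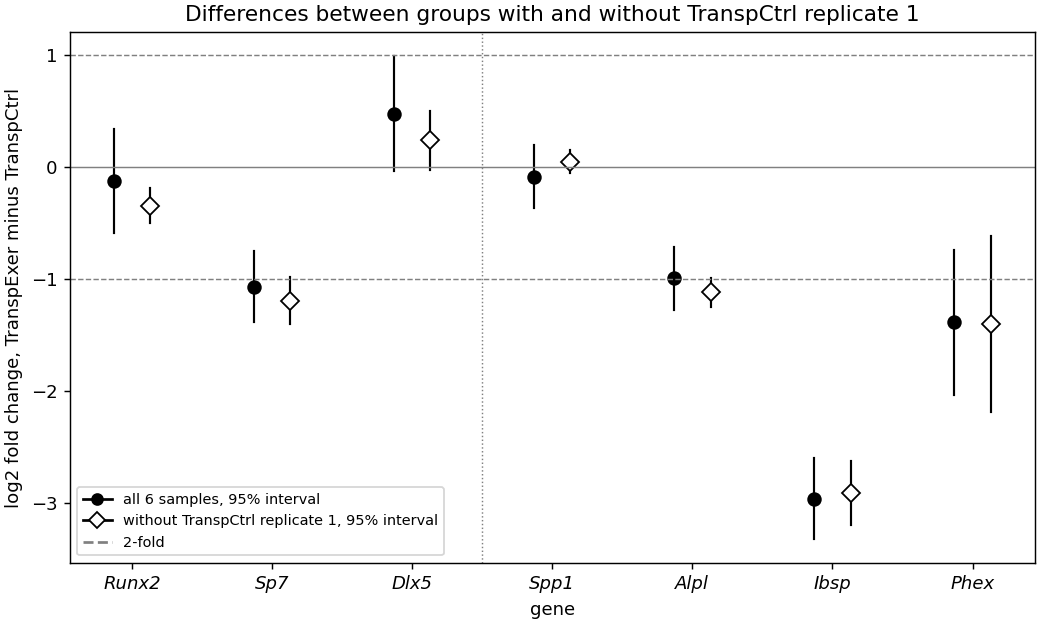
Log2 fold change of the 7 tested genes (TranspExer minus TranspCtrl) with 95% intervals, from all 6 samples (filled circles) and without TranspCtrl replicate 1 (open diamonds). Dashed lines mark a fold change of 2. The intervals of *Sp7*, *Alpl*, *Ibsp* and *Phex* lie below 0 in both fits, that of *Runx2* only without the library (-0.51 to -0.18), and those of *Dlx5* and *Spp1* include 0 in both.

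Levels were compared between genes as CPM per kb of the gene length in the deposited table. In TranspCtrl the order was *Spp1* (2020 ± 309 CPM per kb, SD, n = 3), *Alpl* (42.6 ± 6.67), *Runx2* (26.7 ± 7.74), *Ibsp* (16.1 ± 1.03), *Sp7* (6.03 ± 0.922), *Dlx5* (4.37 ± 1.34), *Phex* (0.245 ± 0.0502), *Dmp1* (0.087 ± 0.0435) and *Mepe* at 0. The ranges of *Sp7* and *Dlx5* overlapped, and the ranges of the other neighbours did not. In TranspExer, *Runx2* (24.5 ± 2.17 CPM per kb) came before *Alpl* (21.4 ± 1.18), with overlapping ends of their ranges, *Dlx5* (6.07 ± 0.30) stood above *Sp7* (2.87 ± 0.156), and *Ibsp* stood at place 6 rather than 4 (2.07 ± 0.44). *Dmp1* (0.253 ± 0.0755) stood above *Phex* (0.0934 ± 0.00652) there, without overlap. *Spp1* held rank 16 of the tested genes in TranspCtrl and 20 in TranspExer by level per kb. The deposited length of *Runx2* is 1791 bases, whereas all its annotated exons cover 8837 bases. With exon lengths, an alternative added after the data were examined, *Runx2* had 5.42 ± 1.57 CPM per kb in TranspCtrl, below *Ibsp* (16.1) and within the range of *Sp7* (5.49 ± 0.84), so its place in the order was uncertain. The order of *Runx2* and *Alpl* in TranspExer turned with these lengths, to 4.97 ± 0.44 and 13.4 ± 0.741 CPM per kb. In TranspCtrl, *Alpl* then had 26.7 ± 4.17 and *Dlx5* 2.75 ± 0.846 CPM per kb, in the same places as before.

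Around the 9 genes, 6 lists with 73 related genes were examined, of which 72 were found by symbol in the table and 54 were tested. In TranspExer 17 were lower and 5 higher past the test, beside 15.5% lower and 16.6% higher among all tested genes. The numbers were 24 and 8 of 56 without TranspCtrl replicate 1, beside 19.6% lower and 22.1% higher among all tested genes in that fit. Of the collagen and bone matrix genes, all 8 tested had lower estimates in TranspExer and 7 passed the test, with a median log2 fold change of -0.75. Those with the smallest adjusted p-values were *Tnn* (tenascin W, log2 fold change -1.44, adjusted p = 1e-04), *Cthrc1* (-1.37, adjusted p = 0.000299), *Omd* (osteomodulin, -1.93, adjusted p = 0.000621) and *Sparc* (osteonectin, -0.89, adjusted p = 0.00138), all from edgeR. *Col1a2* fell by 0.61 on the log2 scale, while *Col1a1* had -0.16 and did not pass (adjusted p = 0.674 from edgeR). With TranspCtrl replicate 1 left out, *Col1a1* fell by 0.44 (adjusted p = 1.54e-05 from edgeR), and all 8 passed. The osteocalcin gene *Bglap* and its copy *Bglap2* had at most 1 count in a sample.

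Among 12 tested osteoblast transcription factors and cofactors outside the 3 members, 2 fell and 1 rose, with a median log2 fold change of -0.18. Of all tested genes, 15.5% were lower and 16.6% higher, so neither count sets this list apart. The fit without TranspCtrl replicate 1 had 4 lower and 1 higher of 13, with a median of -0.36. In that fit 19.6% of all tested genes were lower and 22.1% higher. *Atf4* (-0.65, adjusted p = 0.0033), a factor for osteoblast amino acid supply, and *Twist1* (-0.57, adjusted p = 0.0305), which restrains RUNX2, fell in edgeR's test. *Twist1* lost its call when any 1 sample other than TranspCtrl replicate 1 was left out (adjusted p up to 0.0992 in edgeR). *Hey1*, a Notch target that restrains RUNX2 activity, was 2.47-fold higher (adjusted p = 0.00162 in edgeR). *Fosl2* had -0.36 and an adjusted p = 0.128, which became -0.55 and 9.37e-06 in edgeR without TranspCtrl replicate 1, and -0.44 and 0.0489 when scaled by library size only. Of the paralogues, *Runx1* and *Runx3* were at 0.36 and 0.22 on the log2 scale (edgeR adjusted p = 0.263 and 0.484), and *Runx3* was at -0.032 without TranspCtrl replicate 1. In that fit 1 of 3 tested paralogues, *Dlx4*, was called lower. It had 5 to 20 counts in the 6 samples, was below the filter with all of them and passed it only through its TranspCtrl counts. *Alppl2* and *Akp3*, alkaline phosphatase genes of other tissues, had no reads, and *Dlx1* and *Dlx2* had at most 3 counts.

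Of 12 tested phosphate and pyrophosphate genes 3 were lower and 2 higher, beside 15.5% and 16.6% of all tested genes, so nothing particular to this list is read from them. The counts were 4 and 4 without TranspCtrl replicate 1, beside 19.6% and 22.1% of all tested genes in that fit. No set test was made on this list. *Fam20c*, the kinase that phosphorylates SIBLING proteins, rose by 1.04 on the log2 scale (adjusted p = 0.000546), and *Phospho1*, a matrix vesicle phosphatase, by 0.97 (adjusted p = 0.0196), both from edgeR. *Phospho1* no longer passed without TranspExer replicate 2 or 3 (adjusted p = 0.0666 and 0.0796 in edgeR). *Nt5e*, an ectonucleotidase, fell by 1.08 and *Enpp1*, which makes pyrophosphate, fell by 0.40 on the log2 scale (adjusted p = 0.00218 and 0.00714 from edgeR). *Abcc6* had at most 1 count.

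Of 5 tested genes on the osteocyte list, *Gja1* (connexin 43) fell by 0.93 and *Pth1r*, the parathyroid hormone receptor, by 0.76 on the log2 scale (adjusted p = 0.0127 and 0.0146 from edgeR). Neither passed without TranspExer replicate 2 (0.051 and 0.0517) or 3 (0.0526 and 0.0599) in edgeR, and *Pth1r* stood at the threshold (0.05) without TranspExer replicate 1. *Pdpn* and *Tnfrsf11b* had -0.28 and 0.12 (adjusted p = 0.167 and 0.252 from edgeR). *Pdpn* fell by 0.41 without TranspCtrl replicate 1 (adjusted p = 0.00215 from edgeR), which made 3 of 5 lower. The shares of all tested genes that were lower were 15.5% with all samples and 19.6% in that fit, and a list of 5 genes allows no reading against them. *Sost*, the osteocyte gene of sclerostin, had 0 counts in every sample. Of 15 tested genes of BMP and WNT reception, 3 fell and 2 rose, beside 15.5% and 16.6% of all tested genes. Without TranspCtrl replicate 1 the counts were 4 and 3, beside 19.6% and 22.1%, so neither fit sets this list apart. *Sfrp1*, a secreted WNT antagonist, fell by 1.18 on the log2 scale (adjusted p = 4.99e-05), the WNT receptor *Fzd2* by 0.98 (adjusted p = 0.00348) and the BMP receptor *Bmpr1a* by 0.60 (adjusted p = 0.0044), while the WNT co-receptor *Lrp5* rose by 0.72 (adjusted p = 0.00809), all from edgeR. *Bmpr1b* had at most 3 counts.

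**Figure D4:**
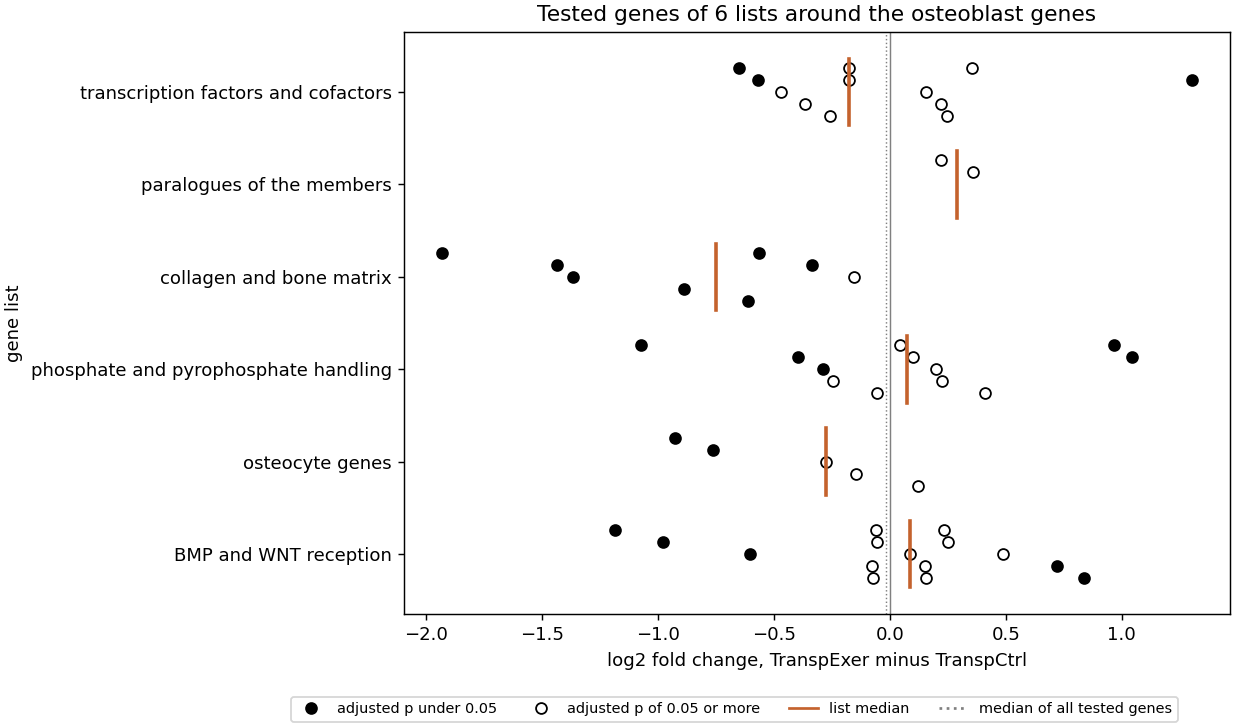
Log2 fold changes (TranspExer minus TranspCtrl) of the 54 tested genes in 6 lists. Filled points have an adjusted p under 0.05, orange bars are list medians and the dotted line is the median of all tested genes (-0.02). All 8 collagen and bone matrix genes lie below 0, and the other lists spread to both sides, apart from the 2 tested paralogues.

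Markers of several cell types were present, and some differed between the groups. Of all tested genes, 15.5% were lower and 16.6% higher, or 19.6% and 22.1% without TranspCtrl replicate 1. No set test was made on the marker lists. The 9 mesenchymal stromal markers were all detected, and their summed level was 2610 to 2780 CPM in TranspCtrl and 2460 to 2490 CPM in TranspExer. Within that list 5 genes fell and 3 rose, or 5 and 4 without TranspCtrl replicate 1. The 6 macrophage markers summed to 7300 to 11500 CPM in TranspCtrl and 5490 to 5990 CPM in TranspExer. Within that list 1 gene fell and 1 rose, so neither count sets it apart from all tested genes. *Lyz2*, the lysozyme gene, had 6410 ± 2340 CPM in TranspCtrl, where it made up most of the sum, and 2910 ± 320 CPM in TranspExer (SD, n = 3 each). By contrast, *Cd68* was 1.72-fold higher (adjusted p = 0.000377 from edgeR), and *Adgre1*, *Csf1r* and *Itgam* did not pass the test. *Adgre1* was higher without TranspCtrl replicate 1 (log2 fold change 0.23, adjusted p = 0.00277 from edgeR). The highest sum was in TranspCtrl replicate 1, the sample with the highest *Spp1*. Of 6 osteoclast markers 5 fell and 1 rose, and their sum was 454 to 590 CPM against 321 to 347 CPM. Among those that fell, *Calcr* (26, 10 and 23 counts in TranspCtrl against 2, 2 and 3) passed the low-count filter only through its TranspCtrl counts. *Ctsk*, the osteoclast protease cathepsin K, had 152 CPM on average in TranspCtrl and 26.7 CPM in TranspExer (log2 fold change -2.51, adjusted p = 4.96e-05 from edgeR), whereas *Atp6v0d2*, a proton pump subunit, rose by 1.02 (adjusted p = 0.000136 from edgeR). The part of these shifts in the levels of *Ibsp*, *Alpl* and *Sp7* was not tested.

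All 6 B and plasma cell markers fell, from sums of 1500 to 1900 CPM in TranspCtrl to 338 to 371 CPM in TranspExer. Beside this and the counts below, 15.5% of all tested genes were lower and 16.6% higher, or 19.6% and 22.1% without TranspCtrl replicate 1. Neutrophil markers summed to 3150 to 4220 CPM against 5450 to 5670 CPM, and 3 of 7 rose, or 5 of 7 without TranspCtrl replicate 1. With all samples these were *Mpo* (216 to 1200 CPM), *Elane* (97.5 to 435 CPM) and *Ngp*. *S100a8*, *S100a9*, *Ltf* and *Camp* did not pass (adjusted p = 0.681, 0.841, 0.506 and 0.14 from edgeR). All 5 endothelial markers rose, from sums of 166 to 202 CPM to 519 to 562 CPM. Adipocyte markers summed to 815 to 964 CPM against 2580 to 3020 CPM, and nearly all of both was *Lpl*, the lipoprotein lipase gene, with 806 ± 48 and 2660 ± 211 CPM. *Adipoq*, the adiponectin gene, had 0.813 and 1.02 CPM and did not pass the test (adjusted p = 0.414 from edgeR), and *Cidec* had at most 1 count. Of 4 tested adipocyte markers 3 rose, *Lpl*, *Fabp4* (72.9 ± 29.3 to 123 ± 10.1 CPM, adjusted p = 0.0454 from edgeR) and *Plin1*, with TranspCtrl counts of 0, 0 and 3 against TranspExer counts of 25, 34 and 31. *Plin1* passed the low-count filter only through its TranspExer counts. Chondrocyte markers were scarce, at 20.3 to 31.9 CPM against 42.3 to 46.2 CPM, mostly *Col2a1*. Of 4 tested chondrocyte markers 2 rose, while *Sox9* and *Comp* did not pass, and *Sox9* was lower without TranspCtrl replicate 1 (-0.48, adjusted p = 0.0151 from edgeR). Smooth muscle markers went from 2430 to 2880 CPM to 1610 to 1820 CPM. Of the 4 smooth muscle markers 3 fell, while *Myh11* was 1.96-fold higher (adjusted p = 0.00668 from edgeR). *Col1a1*, expressed in osteoblasts and other stromal cells, was used as another denominator. *Ibsp* had 0.779, 0.328 and 0.326 reads per 100 *Col1a1* reads in TranspCtrl replicates 1, 2 and 3, against 0.0662, 0.0706 and 0.0425 in TranspExer. *Sp7* had 0.337, 0.202 and 0.213 against 0.132, 0.131 and 0.109. *Alpl* had 1.93, 1.18 and 1.21 against 0.815, 0.782 and 0.656. None of these ratios overlapped between groups. The levels of 52.4% of all tested genes did not overlap either, and no such share was made for ratios. TranspCtrl replicate 1 had the highest value of each ratio and the lowest *Col1a1* of all samples (4560 CPM).

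**Figure D5:**
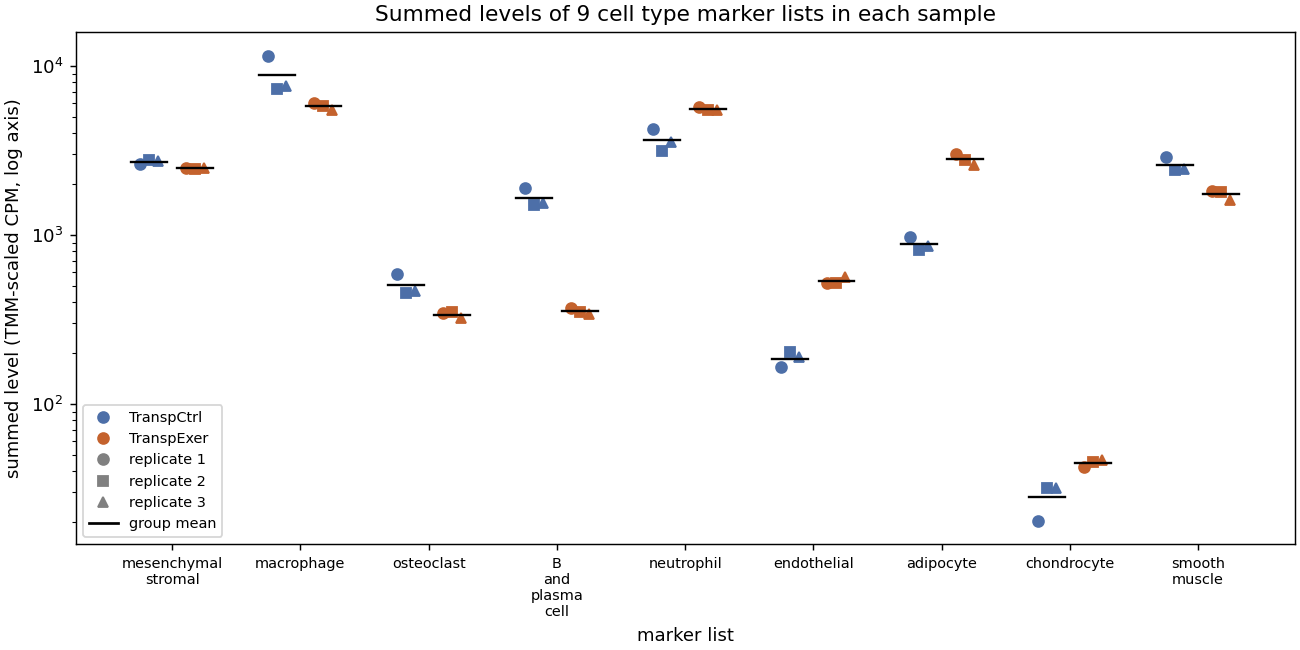
Summed level of 9 marker lists in each sample, in TMM-scaled CPM on a log axis. Points are samples, shapes are replicate numbers and bars are group means. The sums of all 9 lists are separated between the groups. Neutrophil, endothelial, adipocyte and chondrocyte sums are higher in every TranspExer sample, and the other sums are lower. TranspCtrl replicate 1 has the highest macrophage sum.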

How the data were processed

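RNA-Seq was performed on MSCs of 3 TranspCtrl and 3 TranspExer samples, grouped by the sample labels. The authors deposited 1 estimated count per gene and sample, not normalized, with a gene length column. Per the labels the genome build is mm10, and the aligner, counting tool, annotation and strand setting are not given in the sources used here. Library kits differ between sources, a stranded Illumina prep in the labels and TruSeq in the methods. Between 10.1% and 12.2% of a sample's values were not whole, and all were rounded. Of the members, this touched *Runx2* and *Spp1*.

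Differential expression was tested with edgeR 4.0.16 in R 4.3.3 (filterByExpr, TMM, quasi-likelihood, design with group alone). P-values were adjusted by Benjamini-Hochberg over all 15190 tested genes. A gene fell or rose where the adjusted p-value was under 0.05. The 2-fold threshold is that of the paper. Standard errors were derived as the log2 fold change over the root of F. CPM are scaled with TMM factors. The fits were checked on simulated data. With 3 samples against 3, an exact permutation test of 1 gene cannot give a p-value under 0.1.

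Alternatives were DESeq2 1.42.0, upper-quartile factors, library size only, no filter, at least 1 CPM in 3 samples, the replicate number as a block, and each sample left out. The members and lists were chosen with earlier results of these data known. All members were named, with up to 4 genes of smallest adjusted p per list, the listed genes with at most 3 counts, and the 3 genes nearest to *Runx2*, *Sp7*, *Alpl* and *Spp1* in centred log2 CPM (prior count 2). *Col1a1*, *Col1a2*, *Dlx4*, the single cell type markers, *Supt3*, the antisense genes of *Runx2* and *Gm42793* were named after their values were seen. Coordinates come from GENCODE M21 (GRCm38), in which all 9 identifiers were found, and promoters from RefSeq (GRCm38.p6). Of these, sequences of *Alpl*, *Spp1* and *Runx2* are printed, and the others are not reported here.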

Additional observations from a re-analysis of the deposited data

How the results depend on the processing

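*Sp7*, *Alpl*, *Ibsp* and *Phex* kept their direction and stayed past the threshold under all 12 alternatives, and *Dlx5* stayed short of it in all 12. Only the samples left out changed a call of a member. Without TranspCtrl replicate 1, *Runx2* passed the threshold and *Dmp1* entered the test, so that 2 transcription factors were lower. *Dmp1*, the 1 matrix gene then called higher, passed the filter only through its TranspExer counts and was not called with no filter (edgeR adjusted p = 0.066). With 1 sample left out, the log2 fold change of *Runx2* ranged from -0.34 (without TranspCtrl replicate 1) to 0.019 (without TranspCtrl replicate 2), that of *Spp1* from -0.15 to 0.046 and that of *Runx3* from -0.032 to 0.42, with the turned signs of *Spp1* and *Runx3* without TranspCtrl replicate 1. In these fits the transcription factors called lower numbered 1 to 2, the matrix genes called higher 0 to 1, the list genes called lower 11 to 24 and called higher 3 to 8. Over all genes, 1325 to 3041 were called lower and 1315 to 3417 higher, the fewest without single TranspExer samples and the most without TranspCtrl replicate 1. Fits with fewer samples have fewer degrees of freedom. Scaling moved the split of calls over all genes to 2962 lower and 2013 higher with library size only, and to 2901 and 2052 with upper-quartile factors, from 2361 and 2523. It changed no call of a member.

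The equal replicate numbers of the labels did not pair the samples. Deviations from the group mean had correlations of 0.0247, -0.00167 and 0.0416 between equal numbers. With the replicate block, 2218 genes were lower and 2484 higher, 1 transcription factor and 3 matrix genes were lower, and the log2 fold change was -2.97 for *Ibsp*, -1.06 for *Sp7*, -0.98 for *Alpl* and -1.38 for *Phex*. Depth limits *Dmp1*, *Phex* and *Mepe*, which had at most 40 counts in a sample.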
